A study of Homo sapiens with 5 samples.

Results

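The regions described here are promoter regions that, in the human pancreatic carcinoma line MIA PaCa-2, held a peak of the Mediator subunit MED17 and none of the subunit MED30. The peak lists of MED17, MED30 and the transcription factor MYC in parental cells were merged wherever peaks shared at least 1 bp. A merged region was kept if it had a MED17 peak, had no MED30 peak and lay within 1 kb of the start or end of a protein-coding gene. This gave 1937 regions of 19126 merged regions in all, 839 of them with a MYC peak and 1098 without. They made up 23.1% of the 8391 promoter regions with MED17; the other 6454 held both subunits. The size of the class depends on the peak threshold and on how peaks are matched: the upper 50% of the MED17 list by fold left 730 regions, the upper 50% of the MED30 list gave 4638 (55.0%), and matching single peaks by summits within 250 bp gave 5127 (60.0%). The regions were chosen by measured values, the presence of a MED17 peak and the absence of a MED30 peak, so all MED17 and MED30 values below are descriptions and support nothing.

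The data are ChIP-seq peak lists, 1 library per group, from parental cells in normal culture (MED17, MED30 and MYC) and from a derivative with a hairpin to MED30 that doxycycline switches on (teton shMED30), where MYC was mapped with no doxycycline and after 3 days of doxycycline. Both hairpin groups carry the hairpin construct, and only the second received the drug. The Mediator libraries came from cells cross-linked in 2 steps, 20 min in 2 mM DSG, a protein cross-linker, before 10 min in 1% formaldehyde; the MYC libraries had the formaldehyde step alone, so fixation differed wherever MYC is set beside Mediator. With 1 library per group no difference could be tested over replicates. Intervals of shares are exact 95% binomial intervals over regions, which cover counting error only. The interval of a difference between 2 shares is approximate. It combines the distances to the limits of the 2 exact intervals as the root of their summed squares, and also covers counting error only. No measure of MED30 in the hairpin line was used, and the extent of its knockdown was not checked.

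Mediator is a large complex that carries signals from DNA-bound transcription factors to RNA polymerase II at promoters. MED17 belongs to its head module and is a core structural subunit; MED30 is a metazoan subunit that contacts the head. MYC binds DNA as a dimer with MAX, preferably at the E-box CACGTG, and is known for activating genes of growth and metabolism.

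The lists were of unequal depth. The local background pileup that recurred most often, a relative measure of depth recovered from each list, stood at 2.56 fragments in the parental MYC list, 1.65 in the MED30 list and 1.60 in the MED17 list, but at 0.310 and 0.186 for MYC in the hairpin line without and with doxycycline. The MED17 and MED30 lists were thus of like depth by this measure, and the hairpin lists were shallow. The lists also ran to unlike significance. The largest q was 0.0489 for MED17, 0.0498 for MED30 and 0.0499 for MYC in parental cells. In the hairpin line it was 0.0993 without and 0.0979 with doxycycline, so parental and hairpin MYC calls stand at unlike thresholds. At promoter regions of the marker lists, MED17 was present at 4 of 8 mesenchymal and 3 of 9 classical pancreatic genes. It was present at 0 of 6 acinar, 0 of 5 islet, 0 of 5 immune and 1 of 5 fibroblast genes. Over all protein-coding genes it was present at 9649 of 19974, so the mesenchymal share is near the background. These lists are small, and their shares are no result about cell identity. The islet list holds hormone and neuroendocrine genes and does not include MAFA, a beta-cell factor described below with a strong MED17 peak.

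Promoter sequences are printed for 8 of the regions, because they show which of these promoters hold the preferred MYC site and where it lies. They are from RefSeq (GRCh38.p14), 250 bases before to 50 after a RefSeq start, 5′ to 3′ on the gene's strand. Each CACGTG is in capitals. Where several windows met a region, the one whose start was nearest the MED17 summit was taken, and this start can lie inside the gene. The windows of GAR1 and DCTN2 lie wholly inside the gene, downstream of its outer boundary at 109815510 and 57547192. A window was taken where it shared at least 1 base with the region, so parts of some windows lie outside it. The first 3 are the regions with the highest MED17 fold among those with both a parental MYC peak and a CACGTG in the window. TADA1 encodes a subunit of the SAGA coactivator, NR2C1 an orphan nuclear receptor, and GAR1 a protein of box H/ACA small nucleolar ribonucleoproteins. All 300 bases of each of these 3 windows lie in the region.
TADA1, chr1:166876215-166876514, minus strand: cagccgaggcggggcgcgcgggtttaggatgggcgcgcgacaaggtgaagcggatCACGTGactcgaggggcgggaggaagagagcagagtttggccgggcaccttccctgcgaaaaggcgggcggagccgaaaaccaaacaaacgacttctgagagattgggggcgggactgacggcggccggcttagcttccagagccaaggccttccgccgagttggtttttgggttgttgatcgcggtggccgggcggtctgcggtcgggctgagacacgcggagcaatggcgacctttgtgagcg
NR2C1, chr12:95073569-95073868, minus strand: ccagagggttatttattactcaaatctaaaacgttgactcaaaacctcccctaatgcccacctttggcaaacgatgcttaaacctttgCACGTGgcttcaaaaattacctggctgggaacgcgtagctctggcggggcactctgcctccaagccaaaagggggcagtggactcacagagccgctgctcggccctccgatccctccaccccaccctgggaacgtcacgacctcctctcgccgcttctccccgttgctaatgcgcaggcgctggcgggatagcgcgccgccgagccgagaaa
GAR1, chr4:109815512-109815811, plus strand: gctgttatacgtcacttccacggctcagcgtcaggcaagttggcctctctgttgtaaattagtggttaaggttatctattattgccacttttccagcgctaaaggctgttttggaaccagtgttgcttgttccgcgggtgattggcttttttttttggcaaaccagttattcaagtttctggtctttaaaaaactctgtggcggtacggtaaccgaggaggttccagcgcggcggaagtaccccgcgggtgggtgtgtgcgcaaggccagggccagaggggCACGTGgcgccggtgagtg

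The next 3 had the highest MED17 fold among regions with no MYC peak and with a RefSeq window. VPS37B encodes a subunit of the ESCRT-I sorting complex, DCTN2 a subunit of dynactin, and PSMC1 an ATPase of the proteasome cap. The VPS37B window has 1 CACGTG, but it lies outside the MED17 region, which holds 25 bases of the window. The windows of DCTN2 and PSMC1 have no CACGTG; the regions hold 300 and 42 bases of them.
VPS37B, chr12:122896075-122896374, minus strand: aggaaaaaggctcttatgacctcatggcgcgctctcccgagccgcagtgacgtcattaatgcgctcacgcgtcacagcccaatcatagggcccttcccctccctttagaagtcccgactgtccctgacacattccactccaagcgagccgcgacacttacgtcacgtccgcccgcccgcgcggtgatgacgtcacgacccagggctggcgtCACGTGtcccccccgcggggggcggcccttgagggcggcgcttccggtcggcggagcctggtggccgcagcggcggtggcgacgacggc
DCTN2, chr12:57546810-57547109, minus strand: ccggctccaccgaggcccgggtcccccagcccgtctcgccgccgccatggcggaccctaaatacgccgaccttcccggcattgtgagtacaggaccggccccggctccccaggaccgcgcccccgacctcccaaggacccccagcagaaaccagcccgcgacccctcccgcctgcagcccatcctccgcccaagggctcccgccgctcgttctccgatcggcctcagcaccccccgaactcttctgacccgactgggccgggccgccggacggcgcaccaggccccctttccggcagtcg
PSMC1, chr14:90256303-90256602, plus strand: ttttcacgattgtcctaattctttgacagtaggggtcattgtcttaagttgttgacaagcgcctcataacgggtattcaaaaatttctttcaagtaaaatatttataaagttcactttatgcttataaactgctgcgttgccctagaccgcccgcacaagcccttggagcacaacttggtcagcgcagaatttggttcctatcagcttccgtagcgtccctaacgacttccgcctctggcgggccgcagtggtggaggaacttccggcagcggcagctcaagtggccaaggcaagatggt

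CDK4, the cyclin D-dependent kinase and a known MYC target, is shown because its window has 3 CACGTG, 2 of them in the region; it was singled out after its values were seen. SLC7A1, a transporter of cationic amino acids, is shown as a region with MYC in all 3 lists whose window has no CACGTG, though only 30 bases of that window lie in the region.
CDK4, chr12:57752261-57752560, minus strand: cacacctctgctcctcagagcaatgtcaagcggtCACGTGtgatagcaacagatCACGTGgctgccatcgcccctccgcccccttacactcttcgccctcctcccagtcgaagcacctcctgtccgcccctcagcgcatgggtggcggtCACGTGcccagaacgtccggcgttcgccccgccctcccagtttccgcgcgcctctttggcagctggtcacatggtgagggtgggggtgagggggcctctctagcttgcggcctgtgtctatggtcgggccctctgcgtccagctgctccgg
SLC7A1, chr13:29595639-29595938, minus strand: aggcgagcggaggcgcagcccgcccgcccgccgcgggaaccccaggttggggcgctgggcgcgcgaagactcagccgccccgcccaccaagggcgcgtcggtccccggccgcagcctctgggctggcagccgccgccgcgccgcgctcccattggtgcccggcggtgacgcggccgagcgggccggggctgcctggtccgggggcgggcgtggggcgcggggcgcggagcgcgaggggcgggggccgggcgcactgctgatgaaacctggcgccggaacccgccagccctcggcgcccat

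Fold enrichment is summit pileup over local background, with a small constant added to each, as the authors' peak caller gave it. Among regions with MYC, the highest MED17 fold was 9.37 at MAP3K2, a kinase upstream of MAP kinases (chromosome 2, 127387312 to 127388169). The MED17 summit there lay 785 bp downstream of the RefSeq start, and the parental MYC fold was 4.14. TP53RK, a kinase of the KEOPS complex that modifies transfer RNAs, had a MED17 fold of 8.82 and a MYC fold of 4.82. SLC7A1 (chromosome 13, 29594617 to 29595668) had a MED17 fold of 8.73, a parental MYC fold of 10.2, at percentile 97.1 of the MYC list, and MYC folds of 8.47 and 5.87 in the hairpin line without and with doxycycline. Its nearest MED30 peak was 519261 bp away, against 281 bp at TP53RK and 19840 bp at MAP3K2. These 3 regions show a strong MED17 peak beside MYC of very different strength.

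The other 5 of the 8 strongest regions with MYC were at RASL10B, a RAS-like GTPase (MED17 fold 8.59, MYC fold 6.49), FAM83H with IQANK1 (8.57 and 6.45), the mitochondrial ribosomal protein gene MRPL23 (8.54 and 4.49), TAF4, a TFIID subunit (8.48 and 3.6), and C8orf76 (8.32 and 3.62). The MRPL23 region lay 56 bp from a MED30 peak, and MRPL23 also had a promoter region with MED30. The gap was 76813 bp at RASL10B, 81798 bp at FAM83H, 54739 bp at TAF4 and 32288 bp at C8orf76. The 8 strongest without MYC were at AKAP17A (MED17 fold 9.01), VPS37B (8.60), DCTN2 (8.5), MAFA (8.40), TMEM64 (8.29), PSMC1 (8.27), ACVR1B (8.0) and PELI3 (7.95). MAFA is a transcription factor of pancreatic beta cells, ACVR1B a type I activin receptor, and PELI3 a ubiquitin ligase of Toll-like receptor signalling. No MYC list had a peak at any of these 8.

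As a group these regions had weak MED17 peaks. The median MED17 fold was 4.65 (quartiles 3.98 and 5.47), and 37.7% of them were in the upper 50% of the MED17 list by fold. Promoter regions with both subunits had a median fold of 5.28 (quartiles 4.55 and 6.20), with 60.4% in the upper 50% of the list. The strongest MED17 peak was also narrower, with a median width of 594 bp against 939 bp, and had a median summit pileup of 18 fragments against 26. Regions without MED30 were a larger share of weak than of strong MED17 promoter regions: 59.0% (47.7 to 69.7%) at folds of 2 to 3, 27% (25.3 to 28.7%) at 4 to 5 and 7.32% (4.59 to 11%) above 8. The distributions overlapped widely, and 21 regions with a MED17 fold over 8 had no MED30 peak.

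**Figure D1:**
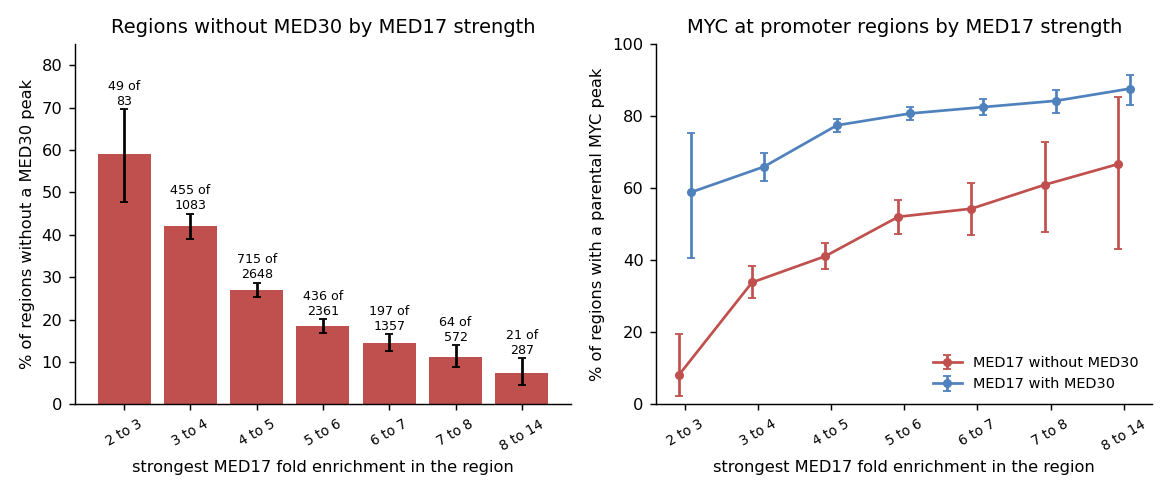
Left, bars give the percentage of MED17 promoter regions without a MED30 peak in bins of the strongest MED17 fold, with the counts above; right, points give the percentage with a parental MYC peak in the same bins, for regions without (red) and with (blue) MED30. Error bars are exact 95% binomial intervals. The share without MED30 was 59.0% in the weakest bin and 7.32% in the strongest, and MYC was less frequent without MED30 in each bin.

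Most of these regions were far from any MED30 peak. The gap from the region to the nearest MED30 peak had a median of 37342 bp (quartiles 9734 and 105612). It was under 500 bp in 237 regions (12.2%), from 500 bp to 1 kb in 54, from 1 to 10 kb in 199, from 10 to 100 kb in 948 and longer in 499. Just inside the rule, the region at NSD3 and LETM2 (MED17 fold 4.07) touched a MED30 peak without sharing a base, and those at GTF3C5 (3.58) and at IFT20 with TNFAIP1 (4.41) were 1 and 2 bp from one. Just outside it, MED17 and MED30 peaks shared 1 bp at TMEM185A (MED17 fold 5.73, MED30 fold 5.66), NEK2 (4.07 and 4.12) and INIP (3.12 and 5.33). The regions near the rule's edge therefore differ by a few bases in how they were classed.

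The regions were mostly at gene starts. Of all 1937 regions, 1550 (80.0%, 78.2 to 81.8%) lay within 1 kb of a protein-coding start and 29 (1.5%) at a gene's end only; for the other 358 the RefSeq promoter table gave no strand. In 1512 regions the MED17 summit was within 2000 bp of a RefSeq start. It lay downstream of the start in 80.2% of these (78.1 to 82.2%), by a median of 222 bp over all 1512. With both subunits, 76.7% (75.5 to 77.8%) of summits were downstream and the median was 182 bp. Summits over 500 bp from the start were 19.5% (17.5 to 21.6%) without MED30 and 11.2% (10.4 to 12.1%) with it. Among the regions without MED30, those lacking MYC were farther out, with 24.7% (21.8 to 27.7%) of summits over 500 bp away against 13.1% (10.7 to 15.9%) of those with MYC.

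**Figure D2:**
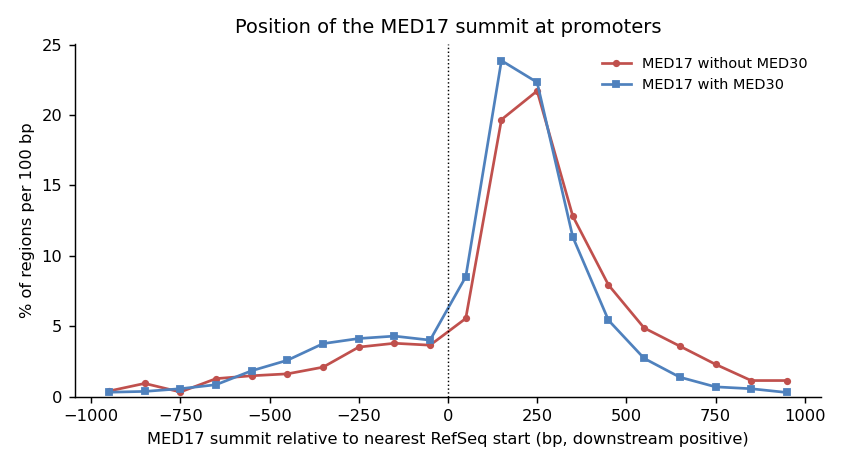
Lines give the percentage of regions per 100 bp by distance of the strongest MED17 summit from the nearest RefSeq start of a protein-coding gene, downstream positive, over summits within 1000 bp. Both classes peak from 100 to 300 bp downstream; regions without MED30 (red) have 7.94% of summits at 400 to 500 bp, against 5.43% with MED30 (blue).

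Starts on both strands within reach of the region, as at divergent promoters, were found at 11.2% (9.64 to 12.8%) of regions without MED30 that had a start, and at 14.9% (13.9 to 15.8%) of those with both subunits. A boundary of a long noncoding RNA gene was within 1 kb of 19.5% (17.7 to 21.3%) and 23.8% (22.8 to 24.9%). Both searches ran outward from the edges of the region, and regions with both subunits were wider (median 1172 bp against 663 bp). The part of width in these shares was not tested. By chromosome, the share of MED17 promoter regions that lacked MED30 ran from 14.0% (10.8 to 17.8%) on chromosome 7 to 32.6% (24.7 to 41.3%) on chromosome 13 (43 regions). Chromosome 19 held the most, 185 regions, and 27.9% of its MED17 promoter regions lacked MED30.

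MYC was less frequent at these regions. The rule did not use MYC to keep a region, though the MYC list took part in the merging. A parental MYC peak was present in 43.3% (41.1 to 45.6%), against 79.1% (78.1 to 80.1%) of the promoter regions with both subunits and 70.8% of all MED17 promoter regions. The difference was -35.8 percentage points (-38.2 to -33.3). It was in the same direction in every bin of MED17 fold, for example 41.1% (37.5 to 44.8%) against 77.4% (75.5 to 79.3%) at folds of 4 to 5 and 60.9% (47.9 to 72.9%) against 84.3% (80.8 to 87.3%) at 7 to 8. It was also present at like widths of the MED17 peak: 35.0% (31.2 to 39.0%) against 68.2% (64.9 to 71.4%) for peaks of 400 to 600 bp, and 63.5% (56.4 to 70.2%) against 87.4% (86.1 to 88.6%) for those over 1000 bp. Regions with both subunits are wider (median 1172 bp against 663 bp), and when MYC was counted only with its summit within 250 bp of the MED17 summit, the difference was -16.2 points. It was -22.3 points with the upper 50% of the MED30 list and -12.2 points (-14.1 to -10.2) with single MED17 peaks matched to MED30 by summits. Because of the merging, 33 regions with both subunits were joined only through a MYC peak, so they hold MYC by construction. Merging without the MYC list gave 1996 regions without MED30, 45.0% of them with MYC, and a difference of -33.9 points (-36.4 to -31.5). MED17 regions without MED30 away from promoters had MYC in 30.1% (27.4 to 32.9%) of 1126.

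**Figure D3:**
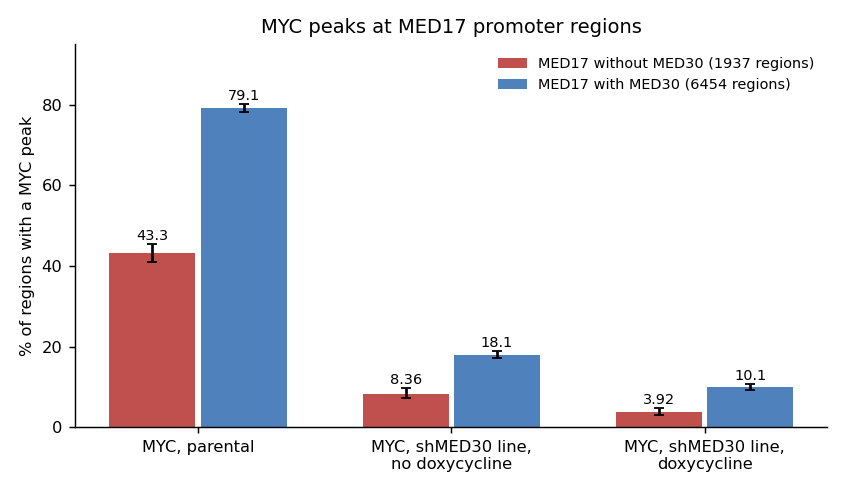
Bars give the percentage of promoter regions with a MYC peak in the parental, no-doxycycline and doxycycline lists, for regions without (red, 1937) and with (blue, 6454) MED30; error bars are exact 95% binomial intervals. Shares without MED30 were 43.3%, 8.36% and 3.92%, each below the share with MED30. The hairpin lists are shallower than the parental list and run to larger q values, so heights compare within a list only.

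Where MYC was present, its peaks were somewhat weaker. The 839 regions with MYC had a median MYC fold of 4.34 (quartiles 3.70 and 5.48), at a median percentile of 45.5 of the MYC list, and the 5103 with both subunits and MYC had 4.77 (4.00 and 5.97), at 58.0. MYC and MED17 summits were a median of 217 bp apart without MED30 and 246 bp apart with it. The range of MYC folds was wide, from 2.57 to 12.7, and the highest was at CCDC86, a nucleolar protein gene, whose MED17 fold was 4.53. The MYC folds of both classes overlapped widely.

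CACGTG was more frequent in promoter windows where MYC was present, in both classes. A RefSeq promoter window overlapped 1041 of the regions, 53.7%, against 80.6% of regions with both subunits, and 12.5% (10.5 to 14.7%) of these windows had CACGTG, against 10.8% (9.97 to 11.7%) with both subunits and 8.34% of all 22132 windows of protein-coding genes. Within the regions without MED30, CACGTG was in 91 of 583 windows with MYC (15.6%, 12.8 to 18.8%) and in 39 of 458 without (8.52%, 6.13 to 11.5%). With both subunits the shares were 12.5% (11.5 to 13.5%) and 4.27% (3.13 to 5.67%). The region held a median of 297 of the window's 300 bases without MED30 but with MYC, and 165 without either. The CACGTG itself lay in the region in 81 of the 91 windows and in 21 of the 39. In the 91 regions with MYC and CACGTG, the MYC summit lay a median of 64 bp from the nearest CACGTG (76 bp in the 517 with both subunits); in the windows printed above the distance was 3 bp at GAR1, 33 bp at NR2C1, 49 bp at CDK4 and 239 bp at TADA1. The median MYC fold was 5.32 (quartiles 4.22 and 6.53) with CACGTG in the window and 4.28 (3.70 and 5.41) in the 492 regions without it; with both subunits the medians were 5.6 and 4.68. A no-doxycycline MYC peak was found at 30 of the 91 (33.0%) and at 84 of the 492 (17.1%), against 35.0% and 20.6% with both subunits.

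Other promoter motifs differed in some cases. Both strands were searched for the letters given, and a match is a description of these windows, not a bound site. The ETS core CCGGAA was in 27.5% (24.8 to 30.3%) of windows without MED30, 36.3% (35.0 to 37.6%) with both subunits and 21.2% of all windows. CCAAT, the NF-Y box, was in 30.5% (27.8 to 33.4%) and 36% (34.7 to 37.3%), with 34.6% of all windows; among regions lacking MYC the shares were 32.3% (28.0 to 36.8%) without MED30 and 45.4% (42.3 to 48.4%) with it. The GC box GGGCGG of SP and KLF factors was in 80.2% (77.7 to 82.6%) and 76.6% (75.5 to 77.8%), with intervals that overlap slightly, against 56.3% of all windows. GC content had a median of 69.7% without MED30, 67.0% with both subunits and 62.3% in all windows. Among regions lacking MYC the median was 70% without MED30 and 63.7% with it. The part of GC content in the motif shares was not tested. Windows at regions with both subunits lay more fully in the region (a median of 300 bases), and the part of this in the motif shares was not tested.

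The remaining motifs were close in the 2 classes. The NRF1 motif was in 13.6% without and 14.6% with MED30 (7.41% of all windows), AAGATGGC of YY1 in 6.34% and 7.34% (3.54%), TGACGTCA of CREB factors in 3.55% and 3.79% (2.26%), TGANTCA of AP-1 in 2.88% and 3.75% (6.15%) and the TATA box TATAAA in 3.65% and 4.40% (9.46%), with intervals that overlapped between the classes each time. Occurrences of different motifs can share bases, as a CRE can with an E-box flank.

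**Figure D4:**
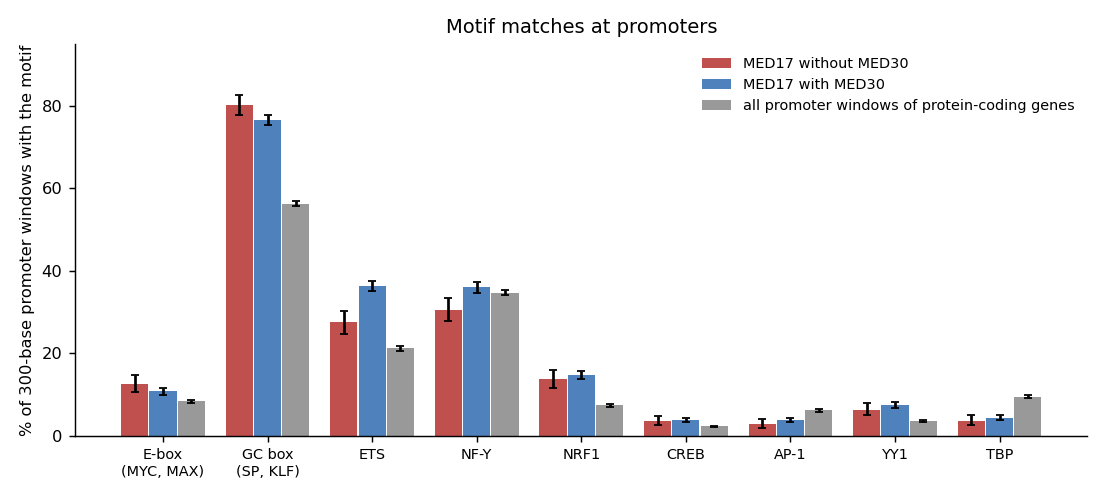
Bars give the percentage of 300-base RefSeq promoter windows with a match to each motif, for windows at MED17 regions without MED30 (red, 1041), with MED30 (blue, 5202) and all windows of protein-coding genes (grey, 22132); error bars are exact 95% binomial intervals. The ETS motif stood at 27.5%, 36.3% and 21.2%, and the GC box at 80.2%, 76.6% and 56.3%.

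In the hairpin line MYC was found at few of these regions. Without doxycycline 162 of 1937 had a MYC peak (8.36%, 7.17 to 9.69%; 13.1% with single MED17 peaks matched to MED30 by summits), against 18.1% (17.1 to 19.0%) with both subunits and 15.8% of all MED17 promoter regions. With doxycycline 76 did (3.92%, 3.10 to 4.89%), against 10.1% (9.36 to 10.8%) and 8.66%. Among regions with parental MYC the no-doxycycline shares were 17.6% (15.1 to 20.4%) and 22.4% (21.3 to 23.6%). Of the 1098 regions without parental MYC, 14 had a peak without doxycycline and 7 with it. Parental MYC thus marked nearly all of the regions where the hairpin lists had a peak, 148 of 162 and 69 of 76.

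The hairpin lists allow the question of how many MYC peaks were still called after 3 days of doxycycline. Of 164 no-doxycycline MYC peaks there, 46 overlapped a peak with doxycycline (28.0%, 21.3 to 35.6%), against 412 of 1190 at regions with both subunits (34.6%, 31.9 to 37.4%) and 33.9% over all MED17 promoter regions. These intervals overlap. Calls also appeared with the drug: 30 of the 76 doxycycline peaks (39.5%, 28.4 to 51.4%) were absent without it, and 240 of 654 (36.7%, 33.0 to 40.5%) with both subunits. All 46 were at regions with parental MYC, where 30.7% (23.4 to 38.7%) and 35.2% (32.5 to 38.0%) were kept; none of the 14 others was, which allows a share of up to 23.2% by the exact interval. Kept peaks had a median no-doxycycline fold of 6.91 (quartiles 5.92 and 8.65) and lost peaks 5.44 (4.72 and 6.42). The doxycycline library was the shallower one, with a background pileup of 0.186 against 0.310 fragments, and the part of depth in the losses was not tested.

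The strongest kept MYC peaks were at CCDC88C, a regulator of Wnt signalling (fold 16.9 without and 13 with doxycycline), and at TET3, which oxidises 5-methylcytosine (16.8 and 5.54). They were followed by the Mediator head gene MED20 (10.6 and 8.48), THUMPD2 (10.4 and 7.38) and CPNE7, a copine (10.4 and 14.3). Folds of different lists do not compare in size, as the lists differ in depth. The MED20 region (chromosome 6, 41920873 to 41922210) also spans a RefSeq start of BYSL, a ribosome biogenesis gene, in a window with 1 CACGTG. The strongest lost peaks were at SOX12 (9.54), ZNF239 (9.50), GAR1 (8.47), SNX25 (8.10) and NFIC (8.07). SOX12 and NFIC are transcription factors, ZNF239 a zinc finger protein and SNX25 a sorting nexin. The SNX25 region also overlaps a RefSeq promoter window of CFAP97. The SOX12 region was 15 bp from a MED30 peak, and the GAR1 region 84562 bp.

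MYC was present in all 3 MYC lists at 47 regions (2.43%, 1.79 to 3.21%), against 6.65% (6.05 to 7.28%) of regions with both subunits. By parental MYC fold they were led by CCDC86 (12.7), CCDC88C (12.1), the hexokinase gene HK2 (10.5), SLC7A1 (10.2) and MED20 (9.80). Genes known to be under MYC control were among them, chosen here after their values were seen: RAN, the GTPase of nuclear transport (parental fold 8.35, then 10.4 and 10.2 in the hairpin line), and SRM, spermidine synthase (3.39, then 4.59 and 5.65). The HK2 region lay 118674 bp from the nearest MED30 peak and RAN 837674 bp, while the SRM region was 84 bp from one. CDK4 (chromosome 12, 57751770 to 57752524) had a parental MYC fold of 5.81 and a MED17 fold of 4.17, no MYC peak in either hairpin list, and a MED30 peak 6578 bp away.

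The regions lay at 2187 protein-coding genes, 10.9% of the 19974 on these chromosomes and 22.7% of the 9649 with any MED17 promoter region. Of the 2187, 447 also had a promoter region with MED30, at the same or the other boundary, and 1740 had none. Gene lists are read against these shares. The lists were assembled with earlier results of these data known, and a list's share near the background is no result about it.

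Genes of transcription itself stood near the background. Of 33 genes for Mediator and its kinase module, 31 had MED17 at a promoter region and 7 of those a region without MED30 (22.6%, 9.59 to 41.1%). They were the kinase module gene MED13 (MED17 fold 8.30, MYC fold 3.31), MED20 (6.28 and 9.80), MED28 (5.98), MED14 (5.30), MED23 (4.76), MED27 (4.73) and MED6 (4.65), the last 5 without MYC. MED14, the scaffold subunit, also had a promoter region with MED30. General transcription factors and TAFs had 10 of 38 (26.3%, 13.4 to 43.1%), led by TAF4 (8.48), the RNA polymerase I factor TAF1C (6.90) and the TFIIA subunit GTF2A2 (5.69). RNA polymerase subunits had 6 of 27, led by POLR2E (7.73), POLR2M (7.28) and POLR2K (4.84).

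The lists next described had larger shares by count. Chromatin regulators, near the background, had 24 of 83 (28.9%, 19.5 to 39.9%), led by the histone demethylase KDM5C (7.56), the bromodomain protein BRD7 (6.55) and the acetyltransferase KAT2A (6.21), whose MYC fold was 8.5; 15 of the 24 had no promoter region with MED30, against 1740 of 2187 over all genes. Genes of the centrosome and cilium had 19 of 54 (35.2%, 22.7 to 49.4%), led by the centrosomal genes CEP295 (7.27), CEP112 (5.01) and CEP57 (4.79). Of the 19, 12 had parental MYC, against 988 of 2187 over all genes. No promoter region with MED30 was found at 17 of the 19, against 1740 of 2187. Zinc finger genes of the ZNF family had 91 of 343 (26.5%, 21.9 to 31.5%), led by ZNF512B (7.82), ZNF606 (7.76) and ZNF532 (7.57). The intervals of the chromatin and zinc finger lists include the 22.7% background, and that of the centrosome and cilium list begins at it.

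Several lists had smaller shares than all genes with MED17. Cytosolic ribosomal proteins had 1 of 80 genes with MED17 (1.25%, 0.0316 to 6.77%), at RPL7 (MED17 fold 3.6), and RPL7 also had a region with MED30. Genes of nucleotide synthesis had 0 of 24, which allows up to 14.2%, and the integrated stress and unfolded protein response 0 of 17, which allows up to 19.5%. Replication-dependent histones had 3 of 56 (5.36%, 1.12 to 14.9%), H4C5 (2.78), H2AC4 and H3C2, the last 2 in a single region with a fold of 2.67. The splicing factor list as assembled had 10 of 84 (11.9%, 5.86 to 20.8%), led by DHX57 (5.96), SNRPA1 (5.56) and PRPF18 (5.56). DHX57 is a helicase gene whose part in splicing was not checked. These lists stood below the 22.7% background with intervals that did not reach it. Histone genes lie in clusters and share regions, so they are not independent counts.

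Mitochondrial and aminoacylation lists were near the background. Mitochondrial ribosomal proteins had 15 of 72 (20.8%, 12.2 to 32.0%), led by MRPL23 (8.54), MRPS18A (7.35) and MRPL54 (6.27). Of the 15, 11 had no promoter region with MED30, against 1740 of 2187 over all genes, and MRPL23 and MRPL54 were not among them. MYC was present at 10 of the 15, against 988 of 2187 over all genes. Oxidative phosphorylation genes had 14 of 74 (18.9%, 10.7 to 29.7%), led by CYC1 (8.01), ATP5F1E (7.37) and NDUFA8 (7.05), and aminoacyl-tRNA synthetases 8 of 33 (24.2%, 11.1 to 42.3%), led by mitochondrial LARS2 (6.09), FARSB (5.48) and PARS2 (5.24). All 3 intervals include the background.

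Cell cycle and replication genes had 17 of 70 (24.3%, 14.8 to 36%), led by the inhibitor CDKN1C (5.96), RBL2 (5.68) and E2F5 (5.21). DNA repair genes had 11 of 59 (18.6%), led by ERCC4 (6.45), RAD54L2 (6.31) and MLH3 (5.90). Genes of ubiquitin conjugation and the proteasome had 11 of 67 (16.4%), led by PSMC1 (8.27), UBE2O (6.48) and UBA3 (6.45). RAS and MAPK signalling had 6 of 26 (23.1%), led by MAP2K2 (6.79), HRAS (4.66) and KSR1 (3.99). Lysosome and autophagy genes had 5 of 47 (10.6%, 3.55 to 23.1%), with ULK1 (5.87), ATP6V1E2 (5.71) and LAMP2 (5.67) first. Nuclear pore genes had 3 of 26 (11.5%, 2.45 to 30.2%): NUP210 (5.56), NUP107 (5.13) and NUP188 (4.57). The exact interval of each list in this paragraph includes the 22.7% background.

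In the MYC network list 3 of 11 genes with MED17 were at regions without MED30 (27.3%, 6.02 to 61.0%), an interval that includes the 22.7% background. They were MLXIP (MED17 fold 5.17, MYC fold 7.58), MLXIPL (3.93 and 4.42) and MXD4 (3.79, no MYC). MLXIP and MLXIPL pair with MLX in glucose sensing, and MXD4 is a MAX partner that opposes MYC. MLXIP kept its MYC peak with doxycycline (6.78 without, 7.07 with), and MLXIPL had one without doxycycline alone (5.68). Of the marker lists, AXL among the mesenchymal genes was at a region without MED30 (4.09), and it also had a region with MED30. The classical pancreatic, acinar, islet, immune, fibroblast and olfactory receptor lists had 0 such genes; at most 3 of their genes had MED17 at all.

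**Figure D5:**
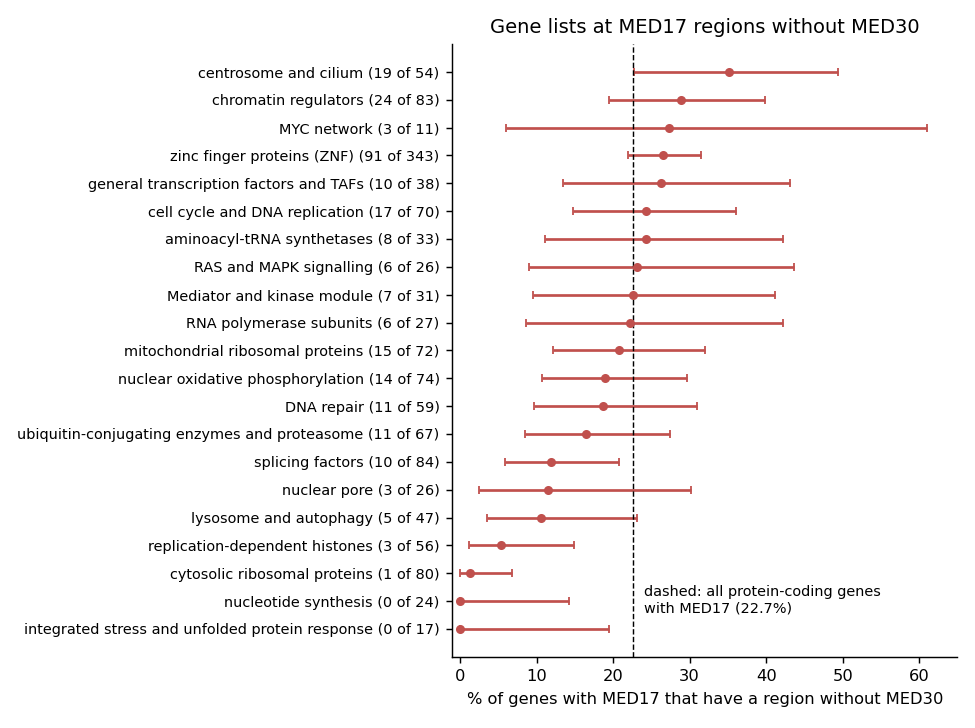
Points give, for each gene list with at least 10 genes with MED17 at a promoter region, the percentage of those genes at a MED17 region without MED30, with exact 95% binomial intervals and counts in the labels; the dashed line is the share over all protein-coding genes with MED17, 22.7%. Centrosome and cilium genes were highest at 35.2% and nucleotide synthesis and stress response genes lowest at 0.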

How the data were processed

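ChIP-seq of MED17, MED30 and MYC in MIA PaCa-2 was analysed from 5 peak lists. Per the submitters' processing notes, Trim Galore, Bowtie2, deepTools and MACS2 were used with build hg38; for their versions, thresholds and any input the entry is: not given in the sources used here. In each deposited list the fold is a ratio of summit pileup to local background, with 1 added to each. The −log10 p and −log10 q columns give significance. The score column, as deposited, equals the −log10 q column multiplied by 10 with decimals cut off (1 MED30 peak differs). Peaks were called per library.

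Peaks on chromosomes 1 to 22 and X were merged at 1 bp of overlap (Python 3.11.15, pandas 2.3.3, SciPy 1.17.1). Genes came from RefSeq, GRCh38.p14 (20037 protein-coding); regions in 29 stretches over 2 Mb without a gene were dropped. Strand and start came from the RefSeq promoter table, which matched 1770 of the 2187 genes and held none on chromosome 8. Pileups were recovered from fold and p by a Poisson tail within 0.002 log10 units for at least 99.6% of peaks. Merging and recovery were tested on simulated data. The members, lists and tests were chosen with earlier results of these data known. Named genes are the 8 strongest by MED17 fold with and without MYC, the 5 strongest kept and lost MYC peaks, 3 regions on either side of the MED30 rule, and up to 3 genes per list (all for Mediator). A region's gene is that with the nearest boundary; promoters inside a gene are missed. Alternatives varied thresholds, overlap, merging and distance.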

Additional observations from a re-analysis of the deposited data

How the results depend on the processing

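Of 84 values recomputed under 12 alternatives, 1 of them chosen after the data were seen, 55 stayed within the interval of the reported value (for counts, within the tolerance used), 29 moved and 0 reversed. The number of regions (1937), the share of MED17 promoter regions without MED30 (23.1%), the parental MYC share (43.3%), its difference from regions with both subunits (-35.8 points), the no-doxycycline MYC share (8.36%) and the number of genes (2187) became 730, 15.8%, 53.6%, -28.6 points, 11% and 837 with the upper 50% of the MED17 list by fold. With the upper 50% of the MED30 list they became 4638, 55.0%, 59.9%, -22.3 points, 11.8% and 5266. With MED17 peaks taken singly and MED30 counted by summits within 250 bp they became 5127, 60.0%, 64.1%, -12.2 points, 13.1% and 5901. With no MED30 peak within 500 bp the share, the MYC share and its difference were 20.3%, 46.5% and -30.5 points, and within 1 kb 19.6%, 47.2% and -29.4 points. Within 500 bp of a gene boundary the share without MED30 was 21.8%. The upper 50% of the MYC list gave a MYC share of 19.4% and a difference of -27.0 points, and MYC summits within 250 bp of the MED17 summit gave 25% and -16.2 points. The class therefore depends on the peak threshold, while the MYC difference stayed negative under the alternatives run. The share of MYC peaks kept with doxycycline and the CACGTG share moved by less than their intervals. No paired analysis was possible because each group holds 1 library. A missing MED30 peak is not a measured absence of MED30: peaks are listed only past the authors' threshold, and no signal was used below it.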
